A study of Mus musculus with 6 samples.

Results

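Angiopoietins are secreted ligands of the endothelial receptor tyrosine kinase Tie2, and together with its relative Tie1 and a phosphatase that acts on Tie2 they form a signalling system that works beside VEGF in blood vessels. Angiopoietin-1 is known as an activating ligand that keeps vessels quiescent and their junctions tight, and angiopoietin-2, made largely by endothelial cells, is known as a ligand that can block or weakly activate the same receptor and is induced where vessels are remodelled. The genes described here are the 3 ligand genes Angpt1, Angpt2 and Angpt4, the receptor genes Tek (Tie2) and Tie1, and Ptprb, which encodes the vascular endothelial protein tyrosine phosphatase. They were taken by gene symbol from the deposited count table, in which all 6 were found among 48440 genes, and all 6 were among the 15257 genes with enough reads to be tested.

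The samples were harvested implants of BEC together with entangled murine tissues, and the paper describes the profiles as those of the surrounding murine tissues. BEC is cartilage engineered from rabbit BMSCs on a PLGA scaffold in 4 weeks of chondrogenic culture. Whether rabbit RNA entered the libraries and was counted on mouse genes was not tested. BEC was wrapped in an electrospun membrane of PCL and collagen and implanted under the skin of male BALB/c nude mice, which lack a thymus and so most T cells and were bought at an age of 6 to 8 weeks. Tissues were taken after 12 weeks from 3 samples with membranes without drug (0%-Axitinib group) and 3 samples with membranes holding 3% axitinib (3%-Axitinib group), an inhibitor of the tyrosine kinases of VEGF receptors. The labels call the samples of the former group untreated, and they were read as the 0%-Axitinib group because the protocol of all 6 samples names membranes with 0% or 3% of the drug and no other kind. Each mouse carried a pair of constructs from the same group, and the labels do not tell which samples shared a mouse, so p-values measure the spread between samples that may not all be separate animals.

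Reads counted on genes numbered 17761968, 16716411 and 18005908 in replicates 1, 2 and 3 of the 0%-Axitinib group and 9225518, 11686084 and 18403795 in those of the 3%-Axitinib group. A count of 3, used as the limit of detection for counting error, stood for 0.157 to 0.330 CPM, the unit of counts scaled to library size by TMM normalization that is used throughout, and every member was above it in every sample, with at least 48 reads. 0%-Axitinib replicate 3 stood apart from the other samples of its group. Its Spearman correlation of log2 CPM over the tested genes was 0.891 with replicate 1 and 0.893 with replicate 2, where replicates 1 and 2 had 0.978 with each other. The main counts are therefore also given without it. Unmapped reads made up 5.47%, 3.84% and 14.9% of the 0%-Axitinib libraries and 48.4%, 29.2% and 16.8% of the 3%-Axitinib libraries, and the part of this difference in the results was not tested.

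All 6 members had a lower mean in the 3%-Axitinib group, by about the same factor for 5 of them and by a smaller one for Angpt4. The study's criterion asks for a change by a factor of 1.5 or more and a p of 0.05 or less (taken as unadjusted). Its cut-offs were applied here to the p of edgeR's quasi-likelihood test, unless another test is named. The paper normalized with DESeq2, does not name its test, and reported fewer genes than met the cut-offs here. A gene that met the criterion here was therefore not necessarily called by the paper. The criterion was met by 5 of 6 members, all lower in the 3%-Axitinib group. In this direction, 11.7% (1785) of the 15257 tested genes met it, and 1456 genes met it as higher. For 4 of 6 members, Angpt2, Tek, Tie1 and Ptprb, the highest 3%-Axitinib sample was below the lowest 0%-Axitinib sample, which was the case for 16.6% of tested genes. Omitting 0%-Axitinib replicate 3 gave 5 members with separate groups, these 4 as lower and Angpt4 as higher. Groups of fewer samples separate more easily, and the share of all tested genes without this sample is not given here, so this count has no background. No member passed an adjusted p of 0.05 in the quasi-likelihood test of edgeR with Benjamini-Hochberg adjustment, in which 3585 genes reached an unadjusted p of 0.05 or less and 1 gene passed the adjustment (0.00655% of those tested). That gene was Nr1d1, a nuclear receptor of the molecular clock, named after its value was seen. By DESeq2's Wald test, 4 of 6 members passed an adjusted p of 0.05, where 6.07% of 16103 genes were called in this direction. When 0%-Axitinib replicate 3 was left out, 4 of 6 members met the criterion, against 13.7% of tested genes. Without 0%-Axitinib replicate 1, 3 of 6 members met it, all lower, beside 1908 of 15868 tested genes in this direction. Over all tested genes, the median log2 fold change was -0.034. In RNA of whole tissue, fewer cells of a type and less RNA per cell cannot be told apart.

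Angpt1, which is made by perivascular and other mesenchymal cells and is also carried by platelets, was measured at 13.3, 6.76 and 22.7 CPM in replicates 1, 2 and 3 of the 0%-Axitinib group and at 5.28, 8.29 and 3.88 CPM in those of the 3%-Axitinib group. The groups overlapped, since 0%-Axitinib replicate 2 lay below 3%-Axitinib replicate 2. The log2 fold change was -1.30 (standard error 0.51), with an unadjusted p of 0.0381 and an adjusted p of 0.187 from edgeR. The study's criterion was missed with limma-voom (unadjusted p = 0.0646) and with replicate number as a block in edgeR (unadjusted p = 0.112). Angpt1 met the study's criterion with 2 of the 6 samples left out in turn. Leaving out its highest sample, 0%-Axitinib replicate 3, gave a log2 fold change of -0.80 (unadjusted p = 0.119). Over 737 exonic bases, Angpt1 overlaps the antisense gene Gm17473, and because the sources used here give no strand setting for the counts, reads of this pair cannot be told apart.

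Angpt2 was higher in all 0%-Axitinib samples, at 34.1, 43.6 and 44.8 CPM, than in the 3%-Axitinib samples, at 12.3, 26.6 and 14.4 CPM. Its 0%-Axitinib samples were close together, and 3%-Axitinib replicate 2 stood above the other 3%-Axitinib samples without reaching the other group. The log2 fold change was -1.20 (standard error 0.33), or 2.30-fold lower, with an edgeR adjusted p of 0.113. DESeq2's Wald test gave an adjusted p of 0.0215. Leaving out 0%-Axitinib replicate 3 gave a log2 fold change of -1.13, and leaving out 3%-Axitinib replicate 2 gave one of -1.60.

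Angpt4, a further ligand of Tie2, did not separate the groups when all samples were used. It was measured at 9.87, 14.6 and 40.1 CPM in the 0%-Axitinib group and at 15.2, 18.1 and 14.7 CPM in the 3%-Axitinib group. The 3%-Axitinib samples were close together, and all of them lay between replicates 2 and 3 of the other group. With all samples, the log2 fold change was -0.43 (standard error 0.51, edgeR adjusted p = 0.632). Its sign rested on 0%-Axitinib replicate 3, without which the log2 fold change was 0.39 (standard error 0.25, edgeR adjusted p = 0.309). The groups were then separate, as smaller groups more easily are, with a higher mean in the 3%-Axitinib group (16.0 against 12.2 CPM, edgeR unadjusted p = 0.168).

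The balance of Angpt2 to Angpt1 is of interest because the ligands compete for the same receptor. Per kilobase of exonic length, Angpt2 was above Angpt1 in all 6 samples, by a ratio of 3.61, 9.10 and 2.78 in the 0%-Axitinib group and of 3.29, 4.53 and 5.24 in the 3%-Axitinib group. The ranges of the groups overlapped. On the log2 CPM scale, Angpt2 minus Angpt1 was 1.66 ± 0.89 (SD, n = 3) without the drug and 1.58 ± 0.34 (SD, n = 3) with it, and the difference between these means (-0.087) was within the spread of either group and changed sign without 0%-Axitinib replicate 2 (0.41) or without 3%-Axitinib replicate 1 (0.10).

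Tek, the gene of the angiopoietin receptor Tie2, was measured at 53.7, 27.9 and 25.8 CPM in the 0%-Axitinib group and at 18.3, 9.20 and 18.4 CPM in the 3%-Axitinib group. The groups did not overlap, with 0%-Axitinib replicate 1 high and 3%-Axitinib replicate 2 low within their groups. The log2 fold change was -1.23 (standard error 0.40), or 2.34-fold lower, with an unadjusted p of 0.0176 and an adjusted p of 0.141 from edgeR. DESeq2's Wald test gave an adjusted p of 0.0473. Tek met the study's criterion with 4 of the 6 samples left out in turn, and not without 0%-Axitinib replicate 1 (log2 fold change -0.81, unadjusted p = 0.0642) or without 3%-Axitinib replicate 2 (-0.97, unadjusted p = 0.0529).

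Tie1, a receptor that binds no angiopoietin by itself with high affinity and forms complexes with Tie2, was measured at 64.3, 40.8 and 87.6 CPM in the 0%-Axitinib group. In the 3%-Axitinib group it was measured at 14.3, 31.4 and 32.4 CPM, and no sample of this group reached the lowest 0%-Axitinib sample. The log2 fold change was -1.30 (standard error 0.40), or 2.46-fold lower, with an edgeR adjusted p of 0.133. DESeq2's Wald test gave an adjusted p of 0.0320. Its highest sample was 0%-Axitinib replicate 3, without which the log2 fold change was -1.01.

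Ptprb encodes a phosphatase of endothelial cells that removes phosphate from Tie2 and is bound to VE-cadherin. It was measured at 60.4, 40.9 and 38.4 CPM in the 0%-Axitinib group and at 15.8, 19.0 and 20.1 CPM in the 3%-Axitinib group. The groups were separate, and the 3%-Axitinib samples differed little from each other, with a mean of 18.3 ± 2.22 CPM (SD, n = 3) against 46.6 ± 12.0 CPM (SD, n = 3). Its log2 fold change of -1.34 (standard error 0.24), or 2.54-fold lower, had the smallest unadjusted p of the 6 members (8.48e-04, rank 127 of 15257 genes) and an edgeR adjusted p of 0.0965. DESeq2's Wald test gave an adjusted p of 7.97e-04. Leaving out 0%-Axitinib replicate 3 gave a log2 fold change of -1.47 with an edgeR adjusted p of 0.0379, and 1252 genes then passed the adjustment. Angpt2, Tie1 and Ptprb met the study's criterion with each of the 6 samples left out in turn.

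**Figure D1:**
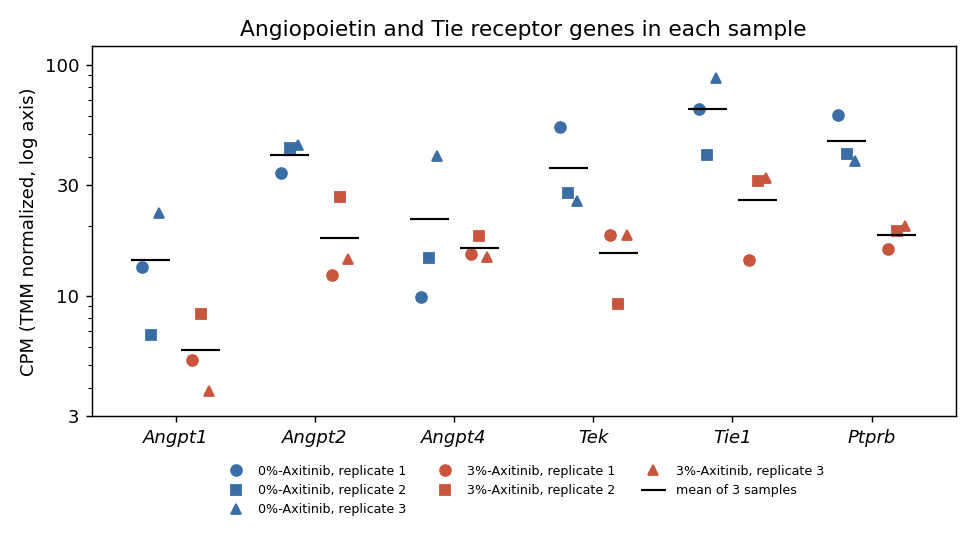
Expression of the 6 genes in each sample, in CPM after TMM normalization on a log axis, with blue points for the 0%-Axitinib group, red points for the 3%-Axitinib group, a point shape for each replicate number and a line at the mean of 3 samples. For Angpt2, Tek, Tie1 and Ptprb, all red points lie below all blue points, while Angpt1 and Angpt4 overlapped, and 0%-Axitinib replicate 3 had 40.1 CPM of Angpt4.

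Levels of different genes were compared as CPM per kilobase of exonic length. In the 0%-Axitinib group the order was Tie1 (13.1 ± 4.75), Angpt2 (11.1 ± 1.59), Angpt4 (9.22 ± 6.98), Tek (7.59 ± 3.29), Ptprb (3.49 ± 0.902) and Angpt1 (2.74 ± 1.54 CPM per kilobase, SD, n = 3 for each gene). The sample ranges of neighbours in this order overlapped, except that every sample's value of Tek was above every sample's value of Ptprb. The place of Angpt4 rested on 0%-Axitinib replicate 3, since the mean of the other 2 samples was 5.23 CPM per kilobase for Angpt4 and 8.65 CPM per kilobase for Tek. In the 3%-Axitinib group, Angpt4 came first (6.85 ± 0.795), followed by Tie1 (5.29 ± 2.07), Angpt2 (4.82 ± 2.09), Tek (3.24 ± 1.12), Ptprb (1.37 ± 0.166) and Angpt1 (1.12 ± 0.433 CPM per kilobase, SD, n = 3 for each gene). Here, too, the step from Tek to Ptprb was the one at which the samples of neighbouring genes did not overlap. Tie1 stood to Tek in a ratio of 1.15, 1.40 and 3.25 in the 0%-Axitinib group and of 0.750, 3.27 and 1.69 in the 3%-Axitinib group, so this ratio varied more among the samples of a group than between the groups. The ratio of Ptprb to Tek was between 0.398 and 0.526 in the 0%-Axitinib group and between 0.307 and 0.731 in the 3%-Axitinib group.

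Tek, Tie1 and Ptprb are genes of endothelial cells, and markers of these cells were also lower in the 3%-Axitinib group. Of 24 endothelial markers, none of them a member, 22 were lower and 17 met the study's criterion, each of these as lower, and the median log2 fold change was -1.38. Summed over the list, they came to 2076, 1297 and 1950.0 CPM in the 0%-Axitinib group and 970.1, 994 and 1233 CPM in the 3%-Axitinib group, and none of the markers was without reads. Without 0%-Axitinib replicate 3, 14 met the criterion as lower, with a median of -1.20. Cd34, the most abundant of them, which fibroblasts also express, had a log2 fold change of 0.24 (edgeR adjusted p = 0.772). The junction cadherin gene Cdh5 had a log2 fold change of -2.37, the adhesion gene Pecam1 -1.61, and the VEGF receptor genes Kdr and Flt1 -2.16 and -1.22, each with separate groups and an edgeR adjusted p between 0.0965 and 0.0972.

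Each member was set beside the mean log2 CPM of the 24 endothelial markers in the same sample. On this scale, 5 of the 6 members had a difference between the groups (3%-Axitinib minus 0%-Axitinib) that was smaller than the SD within either group. It was 0.10 for Angpt1, 0.017 for Angpt2, 0.074 for Tek, -0.041 for Tie1 and -0.036 for Ptprb (exact two-sided permutation tests, p between 0.9 and 1, where 3 samples against 3 allow no p under 0.1). The sign of these 5 differences changed with the samples or markers used. Angpt4 had a difference of 1.11 relative to the markers (exact permutation p = 0.2), with -2.30, -1.14 and -0.49 in the 0%-Axitinib group and 0.15, -0.14 and -0.61 in the 3%-Axitinib group. That difference lay between 0.62 and 1.52 under all 9 alternatives, and 0%-Axitinib replicate 3 was the sample that overlapped with the 3%-Axitinib group. Against the median of the markers (1.21) or the mean of 5 of them (1.48), the groups of Angpt4 were separate (exact permutation p = 0.1 for each, the smallest possible). Cdh5 and Kdr, each set beside the other 23 markers, had differences of -1.22 and -0.98, and Pecam1 had one of -0.33 (exact permutation p = 0.1 for each, the smallest possible). The paper had already reported Cdh5, Kdr and Pecam1 as decreased in these samples, so their p-values are no independent evidence. Flt1 had a difference of 0.069 (exact permutation p = 0.9). In all, 10 genes were compared in this way, and their p-values were not adjusted.

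**Figure D2:**
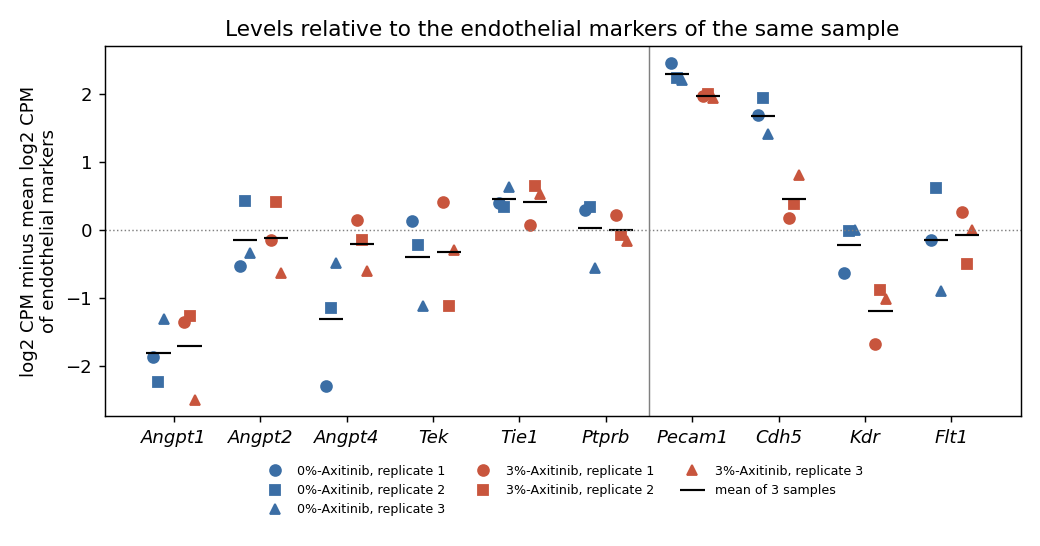
Log2 CPM of each gene minus the mean log2 CPM of the endothelial markers in the same sample, for the 6 members (left of the vertical line) and 4 endothelial genes (right), with blue points for the 0%-Axitinib group, red points for the 3%-Axitinib group, a point shape for each replicate number and a line at the mean of 3 samples. Cdh5, Kdr and Pecam1 separated the groups on this scale, with differences of -1.22, -0.98 and -0.33, and no member did, although Angpt4 did so against the median of the markers or the mean of 5 of them.

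Other cells of the tissue were followed by their markers, and the part of each list in the members' results was not tested. Perivascular mural cells are a source of Angpt1. Of 13 mural markers, 5 met the criterion as lower, namely Rgs5 (log2 fold change -2.22), Abcc9 (-1.89), Mcam (-1.73), Notch3 (-1.66) and Kcnj8 (-1.22), each named after its value was seen and each with separate groups. Another 7 were higher, and the median of the list was 0.049. Its sign turned when 0%-Axitinib replicate 3 (-0.032) or 3%-Axitinib replicate 2 (-0.18) was omitted. The summed level of the list was 1077, 620.4 and 782 CPM in the 0%-Axitinib group and 1924, 815 and 1136 CPM in the 3%-Axitinib group. Des, which has the highest mean of the list and is also a gene of muscle, met the criterion as higher (5.16), with 29.3, 11.7 and 13.4 CPM against 1319, 21.7 and 607 CPM, so it made up much of the sum in 3%-Axitinib replicates 1 and 3 and little of it in the other samples.

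Platelet and megakaryocyte markers were high in 0%-Axitinib replicate 3, the sample in which 4 of the 6 members (Angpt1, Angpt2, Angpt4 and Tie1) were highest. Their sum was 122, 74.2 and 958 CPM in the 0%-Axitinib group and 185, 249.9 and 188 CPM in the 3%-Axitinib group. The most abundant of them, Pf4, was measured at 95.3, 45.6 and 291 CPM and at 152, 219.6 and 149 CPM. Of 6 tested genes, 5 were lower in the 3%-Axitinib group with a median of -2.38, and 1, Ppbp, named after its value was seen, met the criterion (-5.33). Without that replicate, 5 of the 6 were higher, the median was 0.68, and Pf4 met the criterion as higher (1.30). The criterion was met as lower by 5 genes when 0%-Axitinib replicate 1 was omitted, by 4 when replicate 2 of that group was, and by none when any of the other 4 samples was.

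Skeletal muscle markers were high in 2 of the 3 samples of the 3%-Axitinib group. Their sum was 173, 10.9 and 20.8 CPM in the 0%-Axitinib group and 17338, 25.2 and 9719 CPM in the 3%-Axitinib group, where replicate 2 stayed near the level of the other group. All 16 tested genes were higher, 14 of them by the criterion, with a median of 6.93 (11 and 6.53 if 0%-Axitinib replicate 3 is omitted), none separated the groups, and Acta1 was the most abundant. Between the samples of the 3%-Axitinib group, Angpt1, Angpt2 and Angpt4 were highest and Tek lowest in replicate 2, the sample with little muscle signal. Without it, the log2 fold change was -1.64 for Angpt1, -1.60 for Angpt2, -0.97 for Tek, -1.45 for Tie1 and -1.37 for Ptprb.

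Of 6 adipocyte markers, all were lower, 2 of them by the criterion (Fabp4, the most abundant, and Lep, named after its value was seen), with a median of -1.27 (-3.02 without 3%-Axitinib replicate 1, when all 6 met the criterion) and sums of 727, 680.1 and 912 CPM against 405, 289.6 and 288 CPM. Among 8 tested cartilage markers, all were higher and 6 met the criterion, with a median of 2.90 (1.84 without 3%-Axitinib replicate 2, when 4 met it, and 3.17 without 0%-Axitinib replicate 3, when 6 did), Comp as the most abundant and sums of 363, 218 and 167 CPM against 348, 1498 and 633 CPM. The part of reads from rabbit cells of BEC in these cartilage values was not tested. The 10 fibroblast markers were all higher, 1 of them by the criterion (Col1a1, the most abundant), with a median of 0.79 and sums of 27823, 13868 and 10918 CPM against 24345, 71811 and 27028 CPM. When 0%-Axitinib replicate 3 was left out, 8 of the 10 were higher, none met the criterion, and the median was 0.43. None met it without 3%-Axitinib replicate 2 either (median 0.48). None of 11 macrophage markers met the criterion, 6 were lower and 5 higher, the median was -0.036, and Lyz2 was the most abundant, with sums for the list of 11819, 12345 and 8745 CPM against 8735, 11029 and 17274 CPM. With 0%-Axitinib replicate 3 left out, Adgre1, named after its value was seen, met the criterion as lower (-1.35, edgeR adjusted p = 0.0433), and the median turned positive without 0%-Axitinib replicate 1 (0.072) or 3%-Axitinib replicate 1 (0.16). Of 7 lymphatic endothelial markers, 4 were tested, 2 lower and 2 higher, with a median of 0.085. Among these, Flt4, named after its value was seen, met the criterion as lower (-1.83), Pdpn was the most abundant, and the sums were 234, 167 and 71.7 CPM against 212, 119 and 207 CPM. When 0%-Axitinib replicate 3 was left out, 3 of the 4 were lower and the median was -0.37. Omitting any one of the samples gave medians from -0.37 to 0.83, over 4 or 5 tested genes, and the sign was negative in 4 of the 6 cases.

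Other genes of the pathway were taken from 6 lists with 64 genes, of which 62 were in the table and 59 were tested. Of the 59, 43 were lower and 16 higher in the 3%-Axitinib group, and 16 met the study's criterion as lower and 3 as higher, beside 11.7% of all tested genes as lower and 9.54% as higher. Their median log2 fold change was -0.37, beside -0.034 for all tested genes. None passed an edgeR adjusted p of 0.05. When 0%-Axitinib replicate 3 was left out, 6 of the 59 passed it, all lower (Cdh5, Rasa1, Ets1, Elf1, Epas1 and Crk), beside 7.98% of all tested genes in either direction, and 18 met the criterion as lower and 3 as higher, beside 13.7% and 14.5% of all tested genes. Genes that met the criterion are named below also where they were not among the 2 largest changes of their list in either direction, and those were named after their values were seen.

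Transcription factors reported upstream of the members were lower in 7 of 8 cases, 6 of them by the criterion, with a median of -0.88. Ets1, an ETS factor of endothelial cells and lymphocytes, was measured at 56.0, 51.6 and 149 CPM in the 0%-Axitinib group and at 17.9, 20.5 and 18.2 CPM with the drug. For Ets1, the log2 fold change was -2.18 (standard error 0.44, edgeR adjusted p = 0.0965). It was highest in 0%-Axitinib replicate 3, and without this sample the log2 fold change was -1.51 (standard error 0.15). Gata2 had a log2 fold change of -1.92, which rested in part on the same sample, being -0.82 without it (unadjusted p = 0.186). Gata3 (-1.49), Elf1 (-1.07) and the hypoxia-inducible factor genes Epas1 (-0.70) and Hif1a (-0.63) also met the criterion. Elf2 (-0.24) and Foxc2 (0.65, the one gene with a higher mean) did not. Without 0%-Axitinib replicate 3, 4 of the 8 met it as lower, and the median was -0.85. Gata2 and Gata3 (-1.22, edgeR unadjusted p = 0.0794) then no longer met the criterion. With any other sample omitted, 3 or 4 met it.

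Angiopoietin-like proteins share the domains of angiopoietins but do not bind Tie2, and Svep1 encodes a matrix protein that binds Tie1. Of these 7 tested genes, 1 was lower and 6 were higher, with a median of 0.13, which ranged from 0.060 to 0.57 when any one sample was omitted. With 0%-Axitinib replicate 3 omitted, 3 were lower and 4 higher. Angptl1 met the criterion as higher, with 10.2, 10.5 and 6.36 CPM in the 0%-Axitinib group and 19.0, 19.1 and 12.7 CPM in the 3%-Axitinib group, for a log2 value of 0.91 (standard error 0.31, edgeR adjusted p = 0.151). The number of genes in this list that met the criterion as higher was 3 without 0%-Axitinib replicate 1, none when 3%-Axitinib replicate 1 or 2 was omitted, and 1 in the other 3 cases. Angptl2 had a log2 fold change of 0.77 (adjusted p = 0.280 in edgeR). Angptl4, a gene induced by hypoxia and by fatty acids, had one of 0.063 (adjusted p = 0.948 in edgeR), and Svep1 had one of -0.60. Without 0%-Axitinib replicate 3, Svep1 met the criterion as lower (-0.96), and Angptl4 had -0.32. Lect2, a ligand of Tie1, was not tested because of its low counts, with at most 0.0522 CPM.

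Among receptor partners, integrins and related phosphatases, 7 of 9 tested genes were lower and 3 met the criterion, all lower, with a median of -0.41. Omitting any one sample gave medians from -0.55 to -0.15, and the number that met the criterion as lower fell to 1 when 3%-Axitinib replicate 1 or 3 was omitted and was 2 or 3 in the other cases. The 3 genes in the full set were Cdh5, whose product VE-cadherin binds the phosphatase encoded by Ptprb, and the integrin genes Itgb3 (-1.42) and Itgav (-0.91). Itgb3, which platelets also express, was measured at 338 CPM in 0%-Axitinib replicate 3 and had a log2 fold change of -0.69 without it. Itga5 (0.91) and Itgb5 (0.40) had separate groups, with the 3%-Axitinib samples higher, without meeting the criterion. Separate groups in this direction were found for 2236 of the 15257 tested genes. When 0%-Axitinib replicate 3 was left out, Itga5 met it as higher (0.59, unadjusted p = 0.0482), Ptpro, named after its value was seen, met it as lower (-0.68), and Itgb3 no longer did. Of 3 proteases that can shed the Tie receptors or act on their surroundings, Adam10 (-0.62) met the criterion as lower, Mmp14 (0.77) met it as higher, and Adam17 (-0.69) did not meet it, for a median of -0.62. Without 0%-Axitinib replicate 3, Adam17 (-0.91) met it and Adam10 (-0.57) did not, and Mmp14 met it with 3 of the 6 samples left out in turn. Mmp14 was measured at 605, 440.5 and 499 CPM in the 0%-Axitinib group and at 858, 925 and 848 CPM in the 3%-Axitinib group.

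Adaptors and kinases that act below Tie2 were lower in 18 of 22 tested cases, with a median of -0.39. The criterion was met as lower by Rasa1 (-1.11), Pik3cb (-1.10), Nck1 (-0.70) and Crk (-0.61) and as higher by Grb14 (1.14), while Tnip2 had a log2 fold change of 0.46. Rasa1, which limits Ras signalling and is needed for normal capillaries, was measured at 74.0, 103 and 46.6 CPM in the 0%-Axitinib group and at 34.4, 41.4 and 27.8 CPM in the 3%-Axitinib group. With 0%-Axitinib replicate 3 left out, 7 of the 22 met the criterion as lower and none as higher, and with any other sample omitted 3 met it as lower. FOXO factors, which angiopoietin-1 signalling holds outside the nucleus, and genes downstream were lower in 8 of 10 cases, 2 of them by the criterion, with a median of -0.26. Omitting 0%-Axitinib replicate 1 or 3%-Axitinib replicate 2 brought that median near 0 (-0.014 or -0.050), and with 0%-Axitinib replicate 3 omitted 6 of the 10 were lower. The tip cell genes Esm1 and Apln were these 2. Esm1 was measured at 6.26, 8.34 and 51.5 CPM in the 0%-Axitinib group and at 1.21, 0.364 and 0 CPM in the 3%-Axitinib group, where the last value is below the limit of 0.174 CPM in that sample. Its log2 fold change was -5.54 (standard error 1.37), and -3.95 without 0%-Axitinib replicate 3. For Apln, the log2 fold change was -2.84 (standard error 0.84), and without that replicate one of -1.39. Foxo4 (0.47) and Klf4 (0.65) had the largest increases in this list and did not meet the criterion.

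The genes whose log2 CPM followed each member most closely over the 6 samples were taken from 14342 genes with a mean of at least 1 CPM, as a description, since all 6 samples share the difference between the groups. For Angpt1 they were Pcdhb9 (Pearson's r 0.993), Naaa (0.991) and Enpp5 (0.990). For Angpt2 they were Arhgef6 (0.998), Prdm1 (0.993) and Sptssa (0.993). Angpt4 was followed by Slpi (0.988), Slc9a3r1 (0.988) and Plcl2 (0.986). Tek was followed by Itih5 (0.989), Enpep (0.983) and Nid2 (0.980), a basement membrane gene. Tie1 was followed by Prkra (0.997), Sox18 (0.995), a transcription factor gene of endothelial cells that is in the endothelial list, and Gm29650 (0.994). Ptprb was followed by She (0.998), Agtr1a (0.990), the gene of an angiotensin receptor, and Rybp (0.989). No gene was named for more than 1 member. With 0%-Axitinib replicate 3 omitted, 3 of these 18 genes (Arhgef6, Sox18 and She) were still among the 3 closest to their member, and the 2 lowest values were those of Slc9a3r1 and Plcl2 with Angpt4 (Pearson's r 0.932 and 0.946 over 5 samples).

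By the GENCODE annotation of GRCm38, Angpt1 lies on chromosome 15 from 42424723 to 42676977, Angpt2 on chromosome 8 from 18690263 to 18741562 and Angpt4 on chromosome 2 from 151911210 to 151945337. Tek (94739289 to 94874976) and Tie1 (118471191 to 118490061) lie on chromosome 4, and Ptprb lies on chromosome 10 from 116275523 to 116389535. Angpt2 lies within the span of Mcph1 on the opposite strand without shared exonic bases, and Ptprb holds Gm47625 and the small nucleolar RNA gene Gm26495 outside its exons. Angpt1 shares exonic bases with Gm17473, as given above.

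Promoters of 3 of the 6 members, Angpt4, Tek and Tie1, were found in the RefSeq table of GRCm38.p6. The 250 bases before the start were searched on both strands for 5 motifs, the ETS core GGAAGT, the forkhead motif GTAAACA, the GATA motif AGATAA, the core ACGTG of the hypoxia response element and the SOX motif ACAAAG. Among 32851 promoters, these were held by 19.7%, 3.17%, 9.99%, 16.6% and 16.5%. Tek had 1 match, to the SOX motif, which begins 26 bases before the start on the strand of the gene, and Tie1 had 1 match, to the ETS core, which begins 82 bases before the RefSeq start on the opposite strand. The Tie1 gene of GENCODE reaches beyond that start to 118490061, so this match (118489926 to 118489931) lies inside the annotated gene. Angpt4 had no match to any of the 5. No match overlapped another. A match describes letters and not a bound site. The sequences of Tek, which was lower in every 3%-Axitinib sample, and of Angpt4, whose groups overlapped, are given 5′ to 3′ on the strand of the gene, with the SOX match in capitals. They lie at chr4:94739039-94739288 and chr2:151910957-151911206, both on the plus strand.
Tek: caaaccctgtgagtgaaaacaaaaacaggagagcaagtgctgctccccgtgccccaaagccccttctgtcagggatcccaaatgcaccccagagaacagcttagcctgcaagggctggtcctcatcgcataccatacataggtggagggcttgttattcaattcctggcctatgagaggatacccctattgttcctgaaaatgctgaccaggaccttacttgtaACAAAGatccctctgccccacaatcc
Angpt4: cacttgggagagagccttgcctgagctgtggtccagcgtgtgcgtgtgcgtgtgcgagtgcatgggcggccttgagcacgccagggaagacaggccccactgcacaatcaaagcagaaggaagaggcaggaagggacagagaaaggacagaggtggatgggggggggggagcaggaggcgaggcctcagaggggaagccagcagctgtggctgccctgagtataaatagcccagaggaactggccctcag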

How the data were processed

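The authors removed adapters with fastp, aligned the reads to the mouse genome (GRCm38, mm10) with STAR 2.5.2b, as given by the paper and the submitters' processing notes, and deposited raw read counts per gene symbol. The annotation release and the strand setting are not given in the sources used here. Lines for reads of no gene did not enter library sizes or tests (unmapped 3.84% to 48.4%, multimapping 2.71% to 6.65%, outside genes 3.17% to 6.14%, ambiguous 3.55% to 5.74% of a library). Tests ran in edgeR 4.0.16 under R 4.3.3 (filterByExpr with a minimum count of 10 and a minimum total of 15, TMM, quasi-likelihood test, Benjamini-Hochberg adjustment over 15257 genes). DESeq2 1.42.0 and limma-voom (limma 3.58.1) were alternatives. Log2 CPM used a prior count of 2, and exonic lengths came from GENCODE M21. Single values were compared by exact two-sided permutation tests with scipy 1.17.1 under Python 3.11.15, and figures were drawn with matplotlib 3.10.9.

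The members and lists were chosen with earlier results of these data known. The lists were written from general knowledge. Angptl8 and Diaph1 were not analysed here, and Lect2, Ptprh, Grb7, Prox1, Mmrn1, Ccl21a, Tnnc2, Gp9 and Matn3 did not pass the filter, among them Gp9 and Mmrn1, whose reads lay almost all in 0%-Axitinib replicate 3 (592 and 295 reads). Cdh5 and Nos3 are both in a pathway list and in the endothelial list. Named genes were the 6 members, in each pathway list the 2 largest increases and 2 largest decreases, the most abundant gene of each marker list, Pecam1, Cdh5, Kdr and Flt1, and the 3 genes most correlated with each member. Genes beyond this rule are marked in the text. Alternatives changed the test, the normalization, the filter, the replicate block, the summary of the endothelial markers and the prior count, and left out each sample in turn. Leaving out samples for the count of separate groups and for the marker lists, and 0%-Axitinib replicate 3 for the levels per kilobase and the correlated genes, was added after seeing the data. The limit of 3 counts refers to counting error alone, because the reads carry no molecular identifiers and may repeat a molecule.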

Additional observations from a re-analysis of the deposited data

Results flagged for a closer look

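Unmapped reads, which enter none of the comparisons, made up 31.5% ± 15.9 (SD, n = 3) of the 3%-Axitinib libraries and 8.08% ± 5.99 (SD, n = 3) of the 0%-Axitinib libraries. Every 3%-Axitinib library had a larger share than every 0%-Axitinib library (p = 0.1 by an exact two-sided permutation test, which allows no smaller p). Their origin was not analysed here, and their part in the values of Angpt1, Angpt2, Tek, Tie1 and Ptprb was not tested.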

How the results depend on the processing

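The log2 fold changes of Angpt1, Angpt2, Tek, Tie1 and Ptprb stayed below 0 under all 13 alternatives, between -1.64 and -0.80, -1.60 and -0.99, -1.42 and -0.81, -1.54 and -1.0, and -1.48 and -1.12. With DESeq2's Wald test, Angpt2 (-1.21), Tek (-1.24), Tie1 (-1.31) and Ptprb (-1.36) passed an adjusted p of at most 0.05, so that 4 members and 1748 genes in all were called. The number of called genes was 15 with no filter, 2 with limma-voom and 2 with the replicate block. Leaving out each sample in turn gave between 0 and 1252 called genes, between 0 and 1 called members, between 3 and 5 members that met the study's criterion, a log2 fold change between -1.47 and -1.12 for Ptprb and between -0.78 and 0.39 for Angpt4, and a difference of Angpt2 to Angpt1 between -0.43 and 0.41. The 3 members without 0%-Axitinib replicate 1 were Angpt2, Tie1 and Ptprb, beside 1908 of 15868 tested genes that met the criterion as lower. Among these fits, the fewest tested genes met the criterion as lower without 3%-Axitinib replicate 1 (1308 of 15878). The most did so without 0%-Axitinib replicate 3 (2148 of 15690). The cause of these changes was not tested.

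Relative to the endothelial markers, leaving out each sample gave between -0.12 and 0.50 for Angpt1, -0.25 and 0.30 for Angpt2, -0.30 and 0.47 for Tek, -0.16 and 0.13 for Tie1, and -0.33 and 0.12 for Ptprb. With the median of the markers, the difference was 0.062 for Tie1 and 0.067 for Ptprb, and with 5 markers (Pecam1, Cdh5, Cldn5, Emcn and Egfl7) it was 0.33 and 0.34. With these 5 markers, Angpt1 (0.47), Angpt2 (0.39), Tek (0.44) and Angpt4 (1.48) also had a higher mean in the 3%-Axitinib group. With total counts in place of TMM, the median of all genes moved by -0.13, the share of lower genes among those meeting the criterion was 71.2% in place of 55.1%, and the median of the angiopoietin-like list was -0.0041. Less the median of all genes, the members' log2 fold changes were then between -1.32 and -0.38, against -1.31 and -0.39 with TMM.

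Replicate numbers gave no visible pairing of the samples: deviations of samples with the same number correlated at 0.18, -0.12 and -0.17, and not every sample correlated best with its own number. These deviations are from the means of few samples and cannot decide whether samples were paired by number, which was not tested. With the replicate block, 4 members met the criterion, and Angpt1 did not (log2 fold change -1.21, unadjusted p = 0.112), while Angpt2 had -1.27, Tek -1.21, Tie1 -1.33, Ptprb -1.32 and Angpt4 -0.16. Of the 15257 tested genes, 1354 met the criterion as lower with this block and 1785 in the main fit. Angpt1 also missed it with limma-voom (unadjusted p = 0.0646).

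When samples were omitted one at a time, the median log2 fold change of the mural list lay between -0.18 and 0.25, that of the lymphatic list between -0.37 and 0.83, that of the macrophage list between -0.14 and 0.16, and that of the platelet list between -2.90 and 0.68.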
